A study of Mus musculus with 40 samples.

Results

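The G1/S and DNA replication genes were 39 of the 21958 genes counted in each of 40 RNA libraries. They were chosen by symbol, with earlier results of these data known. The libraries came from B-lineage cells sorted from mouse bone marrow. All 39 had a row in the table and all 39 passed the low-count filter of every fit. Lethally irradiated CD45.1 mice received bone marrow from wild-type (WT) mice or from mice homozygous for P198A, a proline to alanine change made by CRISPR/Cas9 in the zinc transporter ZIP7, encoded by Slc39a7. After 8 weeks, 100 donor cells (CD45.1- CD45.2+) per library were sorted from 4 fractions of the Hardy scheme of B-cell development, so each of the 8 groups of genotype and fraction held 5 libraries from 5 mice (WT mice 1, 2, 3, 6 and 7, mutant mice 4, 5, 8, 9 and 10). FrB (B220+ CD43+ CD24+ BP1-) holds pro-B cells, FrD (B220+ CD43- IgM- IgD-) late pre-B cells and FrE (B220+ CD43- IgM+ IgD-) immature B cells, while no source used here gives the gate of FrC. All donor-derived blood cells of the mutant group carried the allele, tissues of the host did not, and no source used here gives the strain, age or sex of the mice. The titles call the mutant group KO, but the allele changes 1 residue, so the genotype cannot be checked by the RNA level of Slc39a7.

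A cell that enters S phase first loads the MCM helicase ring onto origins with CDC6 and CDT1, then activates it with CDC45 and the GINS complex, and the polymerases, the PCNA clamp and the enzymes of nucleotide supply follow. Transcription of many of these genes is driven at the G1/S boundary by E2F factors, whose activity depends on cyclin-dependent kinases. In bone marrow, pro-B and large pre-B cells divide under IL-7 and pre-B-cell receptor signals, small pre-B cells leave the cycle and rearrange the light chain, and immature B cells are mostly resting. In these bulk libraries fewer cycling cells and less RNA per cell cannot be told apart.

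The genes were grouped by role. The MCM helicase group held Mcm2 to Mcm7, helicase activation held Gins1 to Gins4 and Cdc45, and origin licensing held Cdc6 and Cdt1. The clamp group held Pcna and the clamp loader genes Rfc1 to Rfc5, and the polymerase and primase group held Pola1, Pole, Pold1, Prim1 and Prim2. Nucleotide supply held Rrm1, Rrm2, Tyms, Tk1, Dut and Ung. Single-strand binding and Okazaki fragment processing held Rpa1 to Rpa3, Fen1 and Lig1, and the G1/S switch held E2f1, Ccne1, Ccne2 and Slbp.

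The stretches before the transcription starts of the MCM genes are shown because E2F sites in such promoters are textbook examples. They were also chosen because genes of this group fell between WT FrC and FrD without the low-complexity libraries, described below. With all libraries no MCM gene was called in a WT step. The 250 bases before the RefSeq start (build GRCm38.p6, gene strand, 5′ to 3′) are given for Mcm5 (chr8:75109259-75109508, plus strand), Mcm6 (chr1:128359706-128359955, minus strand), Mcm2 (chr6:88898781-88899030, minus strand) and Mcm3 (chr1:20820313-20820562, minus strand), all of them outside the GENCODE M21 gene bodies. Capitals mark the E2F motifs TTTGGCGC, TTTCGCGC, TTTGCCGC and TTTCCCGC and the CCAAT box, each searched on both strands.
Mcm5: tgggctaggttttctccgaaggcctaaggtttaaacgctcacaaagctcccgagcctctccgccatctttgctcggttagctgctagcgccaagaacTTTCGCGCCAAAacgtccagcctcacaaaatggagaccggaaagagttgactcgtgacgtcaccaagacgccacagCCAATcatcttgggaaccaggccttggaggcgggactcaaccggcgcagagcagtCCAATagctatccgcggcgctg
Mcm6: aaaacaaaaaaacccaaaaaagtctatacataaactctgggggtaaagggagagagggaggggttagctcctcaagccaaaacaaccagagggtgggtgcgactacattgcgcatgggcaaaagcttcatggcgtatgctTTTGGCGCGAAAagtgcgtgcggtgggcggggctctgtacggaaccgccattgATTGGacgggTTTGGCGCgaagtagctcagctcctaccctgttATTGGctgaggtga
Mcm2: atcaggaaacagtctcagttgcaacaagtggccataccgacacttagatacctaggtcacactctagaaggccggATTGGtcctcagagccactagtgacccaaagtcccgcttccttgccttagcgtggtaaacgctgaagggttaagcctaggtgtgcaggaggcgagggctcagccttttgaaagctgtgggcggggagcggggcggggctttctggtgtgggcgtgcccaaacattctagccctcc
Mcm3: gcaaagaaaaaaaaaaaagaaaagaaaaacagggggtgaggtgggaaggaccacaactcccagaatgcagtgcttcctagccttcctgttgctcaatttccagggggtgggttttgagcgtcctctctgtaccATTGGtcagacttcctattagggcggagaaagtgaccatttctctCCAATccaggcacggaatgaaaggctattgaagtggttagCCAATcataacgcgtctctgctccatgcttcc
Mcm5 had 2 E2F matches, which overlapped each other and lay 153 and 149 bases before the start. Mcm6 had 3 matches, at 110, 106 and 47 bases, the first 2 of them overlapping. Neither Mcm2 nor Mcm3 had an E2F match in this window, while all 4 of these genes had at least 1 CCAAT box. No E2F match overlapped a CCAAT box in these windows. RefSeq start sites were matched for 31 of the 39 genes, and Gins1, Gins2, Gins4, Mcm4, Rfc2, Prim2, Pole and Ccne2 had no entry. An E2F match lay in this window in 7 of the 31 genes (22.6%): Mcm5, Mcm6, Mcm7, Gins3, Cdc6, Rfc3 and Pola1. The share was 2.16% of 27025 genes with a window and 26.2% of the 65 other G1/S genes described below that had one. A CCAAT box lay in 58.1% of the 31 genes and in 37.5% of all genes. The 7 genes with an E2F match had a median log2 change of -0.59 between WT FrC and FrD, against -0.54 in the other 24, and of -1.05 against -1.04 between WT FrD and FrE. A match is a description of letters and not a binding site.

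Endogenous totals ran from 42111 counts in FrE of mutant mouse 9 to 43372070, with a median of 16474388. Low-complexity libraries are those where genes with 1 to 9 counts made up more than 15% of the genes detected, and there were 10. Of the WT libraries they were FrD of mouse 3 and FrE of mouse 7. Of the mutant libraries they were FrB of all mice but mouse 5, FrC of mice 5, 9 and 10, and FrE of mouse 9. In FrE of mutant mouse 9, 1 count was worth 23.7 CPM (the count scaled to 1000000 endogenous counts), so single values there are coarse. The B-lineage gene Cd79a, which encodes a chain of the B-cell receptor complex, had counts in every library. Ms4a1, the CD20 gene of maturing B cells, was higher in WT FrE (2489.7 to 8641.0 CPM) than in WT FrD (114.1 to 586.8). Markers of other cells stood out in single libraries and in some whole groups. The summed level of 15 granulocyte and monocyte genes was 77486.7 CPM in FrD of WT mouse 3 and ran from 35.8 to 348.0 in the other WT FrD libraries. It was 71513.6 CPM in FrE of mutant mouse 5, which was not a low-complexity library, and ran from 2461.9 to 59836.0 in mutant FrB against 217.2 to 10962.1 in WT FrB. The 12 erythroid genes reached 80463.6 CPM in FrC of mutant mouse 9 and ran from 2422.8 to 24112.0 in WT FrB. The 8 plasma cell genes ran from 17778.1 to 52993.6 CPM in WT FrB. All 15 granulocyte and monocyte genes and all 12 erythroid genes had a count in every group. Counts were scaled by TMM factors for the tests, a gene was called where edgeR's quasi-likelihood test gave a p, adjusted by Benjamini-Hochberg over all genes, under 0.05, and log2 fold changes are given ± SE.

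The genes were most abundant in FrC and least abundant in FrE of WT mice. The summed level of the 39 genes was 9252 ± 1392 CPM (SD, n = 5) in WT FrB, 12521 ± 838 in FrC, 7825 ± 1383 in FrD and 4106 ± 1706 in FrE. In each of the 5 WT mice the sum was higher in FrC than in FrB, lower in FrD than in FrC and lower in FrE than in FrD. In the mutants it was 7342 ± 1884 CPM in FrB, 8898 ± 3366 in FrC, 9014 ± 2042 in FrD and 2791 ± 1067 in FrE. Only the last of these steps had one direction in all 5 mutant mice, while the sum was lower in FrC than in FrB in 3 mutant mice and lower in FrD than in FrC in 3. Mutant FrC spread from 4820.6 CPM in mouse 9 to 12863.4 in mouse 8, and its 3 low-complexity libraries were its lowest. Without the low-complexity libraries mutant FrC had 2 libraries, at 11861.0 and 12863.4 CPM, inside the WT range of 11368.0 to 13644.6.

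**Figure D1:**
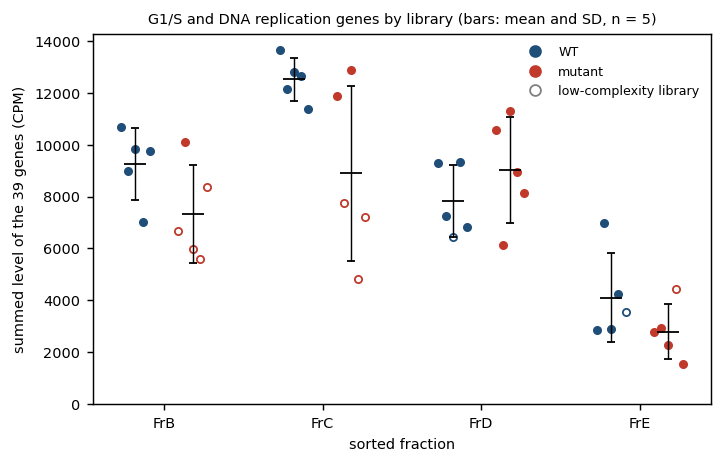
Summed level of the 39 genes in CPM (y axis) for each library by sorted fraction (x axis), WT in blue and mutant in red, with the mean and SD of 5 libraries and low-complexity libraries as open circles. All FrE libraries except FrE of WT mouse 2 (6979.5 CPM) lie at or under 4440.6 CPM, and the WT FrC libraries lie between 11368.0 and 13644.6.

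Scaled to the spike-in RNA instead, the drop lay earlier. The 39 genes had 23.3 ± 13.0 counts for each ERCC count in WT FrC (SD, n = 5), 3.10 ± 1.67 in WT FrD and 1.97 ± 1.34 in WT FrE, a 7.52-fold lower mean in FrD than in FrC and 1.57-fold lower in FrE than in FrD. In the mutants the means were 32.6, 4.13 and 1.12, which is 7.89-fold and 3.69-fold lower. The mutant FrC mean rested on the low-complexity libraries of mice 9 (66.456, with 125 ERCC counts) and 5 (55.14, with 896 ERCC counts), while the libraries that were not of low complexity had 31.862 and 5.082. The median over all genes tested moved the same way under this scaling, with a log2 change between FrC and FrD of -2.39 in WT and -2.29 in mutant cells, so that the 39 genes, with medians of -2.96 and -2.79, lay below it by far less than the drop itself.

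Single genes followed the sum in most cases. The WT group mean was highest in FrC for 33 of the 39 genes and lowest in FrE for 32. The exceptions at the top were Tyms (FrB), Pola1, Rrm2 and Rpa3 (FrD), and Pold1 and E2f1 (FrE). For Pold1 that FrE mean included the low-complexity library of mouse 7, which stood apart from the rest of its group at 804.9 CPM. At the bottom, Rfc1, Rfc2, Ung, Rpa1 and Ccne1 had their lowest WT mean in FrD, and Pold1 and E2f1 in FrB. In the mutants 16 genes were highest in FrD, 15 in FrC and 8 in FrB, and 36 were lowest in FrE. Per kilobase of exon, the highest WT means of each role were those of Rrm2 (321 CPM per kb), Pcna (315), Cdt1, Mcm6, Gins4, Prim1, Rpa3 (107) and Slbp (95.4), and the lowest of all was Pole (4.35).

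**Figure D2:**
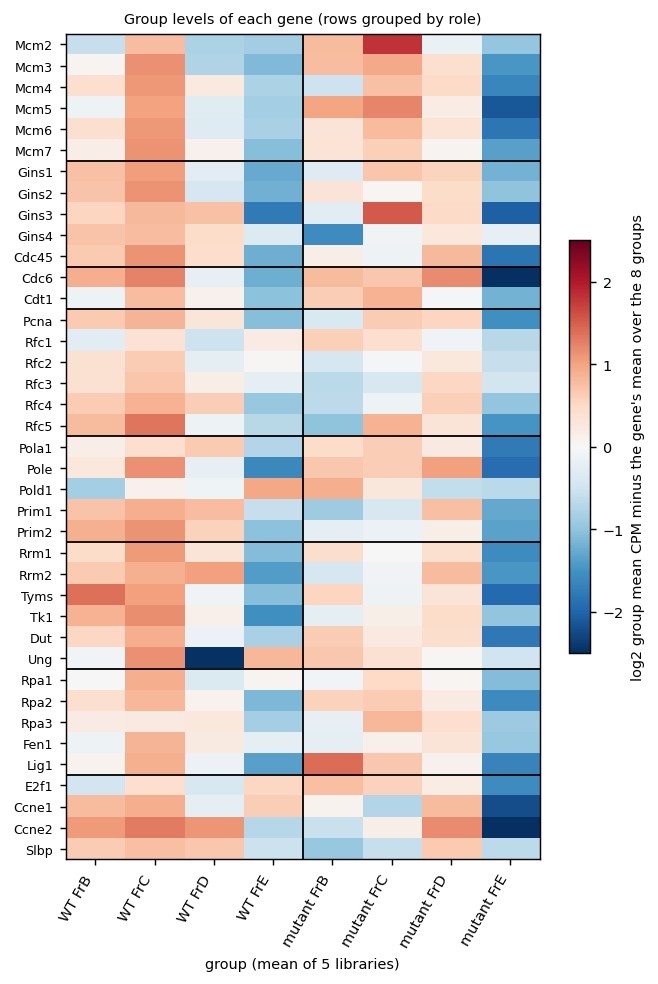
Group mean level of each of the 39 genes (rows, grouped by role) in the 8 groups (columns), as log2 CPM minus the mean of the gene over the groups, with colours limited to 2.5 in either direction. The FrC column is the reddest in WT for 33 genes and the FrE column the bluest for 32, and mutant FrE is the bluest mutant column for 36.

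The first WT step, from FrB to FrC, asks what changes before FrC, and no gene of the 39 was called, against 0.166% of 11439 genes tested in either direction. At an unadjusted p under 0.05 there was 1 gene of the 39 and 576 of all genes. Values lay above zero in 36 of 39 genes, with a median log2 change of 0.33, against 50.7% of all genes and a median of 0.01. In the same step the 8 plasma cell genes went from 17778.1 to 52993.6 CPM in FrB to 1167.5 to 10892.5 in FrC, and the 10 genes of immature and mature B cells from 7539.8 to 12144.3 to 2242.2 to 4313.2. Neither list overlapped between the fractions, and all of their genes had a count in both. The 12 erythroid genes ran from 2422.8 to 24112.0 CPM in FrB and from 1341.2 to 7113.2 in FrC, which overlapped. The part of these lists in the result was not tested. The MCM group had the highest role median (0.94, 6 of 6 above zero). Mcm2, a subunit of the helicase ring, ran from 73.0 to 142.4 CPM in WT FrB and from 195.9 to 363.7 in WT FrC. Those ranges did not overlap, and the change was 1.28 ± 0.52 on the log2 scale, with an edgeR adjusted p of 0.728. In 8 genes (Mcm2, Mcm5, Gins2, Pole, Pold1, Dut, Fen1 and Lig1) every FrC library was above every FrB library, and 3.75% of all genes tested did the same.

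Between WT FrC and FrD, the step into late pre-B cells, no gene of the 39 was called with all libraries, while 5.23% of all genes tested were (2.95% higher and 2.28% lower). The median log2 change of the 39 was -0.55, with 30 below zero, and that of all genes was 0.09. At an unadjusted p under 0.05 there were 9 of the 39 genes and 2280 of all genes (19.9%), so that count lay near the share of all genes. FrD of WT mouse 3 was the low-complexity library with the granulocyte signal. It had the highest sums of WT FrD for the MCM, origin licensing and single-strand binding and Okazaki groups. Its sums were the lowest of WT FrD for helicase activation (60.3 CPM), the clamp group (882.1), nucleotide supply (916.0) and the G1/S switch (304.4). The sum of all 39 genes there, 6453.7 CPM, was also the lowest of WT FrD. Without the low-complexity libraries 11 of the 39 fell and none rose (7.53% of 11657 genes tested were called lower and 8.54% higher), and the median was -0.94. Without mouse 3 alone 3 genes were called, and without mouse 7 alone 1, with the shares of all genes in those fits not given here.

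The helicase loading genes were the largest block among those 11. Mcm5 measured 466.9, 319.5, 419.7, 439.8 and 432.4 CPM in FrC of WT mice 1, 2, 3, 6 and 7, and 99.6, 115.2, 466.7, 101.2 and 55.8 CPM in FrD of the same mice. Every FrD library except that of mouse 3 lay below every FrC library. Mcm5 changed by -0.87 ± 0.54 on the log2 scale with all libraries and fell by 2.03 ± 0.34 without the low-complexity ones (edgeR adjusted p = 0.000263). Mcm2 fell by 1.94 ± 0.40, Mcm3 by 2.02 ± 0.54 and Mcm7 by 1.57 ± 0.29 in that fit. Cdt1, which brings the MCM ring to origins, measured 139.5, 84.3, 119.7, 120.0 and 177.7 CPM in WT FrC and 19.6, 31.1, 291.3, 29.8 and 33.6 CPM in WT FrD. It was the highest of all WT libraries in FrD of mouse 3 and below every FrC library in the other 4, and it fell by 2.03 ± 0.54 without the low-complexity library (edgeR adjusted p = 0.0135). The other genes that fell were Rfc1 and Rfc5 of the clamp loader, Pold1, the catalytic subunit of polymerase delta, Rpa1 and Rpa2, which coat single-stranded DNA, and Fen1, the flap nuclease of Okazaki fragments.

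Single genes of other roles did not pass the test in this step, and roles were not compared with each other by a test. Rrm2, the small subunit of ribonucleotide reductase, measured 1641.0, 1161.7, 211.1, 1813.3 and 1391.1 CPM in WT FrD, its highest WT group, and its change from FrC was 0.54 ± 0.35 without the low-complexity libraries and did not pass the test. Slbp, the stem-loop binding protein of histone messages, measured 629.4 to 961.2 CPM in WT FrD outside mouse 3 (134.8) and 482.7 to 905.5 in WT FrC, with overlapping ranges. Gins4, a GINS subunit, ran from 127.8 to 156.2 CPM in WT FrC and from 81.6 to 194.5 in WT FrD outside mouse 3 (19.3). In 10 of the 39 genes every FrD library was below every FrC library, including Mcm3, Mcm6, Rfc5, Tyms and Dut, and 9.3% of all genes tested did so. Mcm6 changed by -1.20 ± 0.47 (edgeR adjusted p = 0.136) and Rfc5 by -1.27 ± 0.41 (adjusted p = 0.0692) with all libraries. Ung, the uracil glycosylase, had only 0.0421 to 9.10 CPM in WT FrD against 17.0 to 67.7 in FrC, and its change of -3.45 ± 1.22 missed the test (edgeR adjusted p = 0.100).

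**Figure D3:**
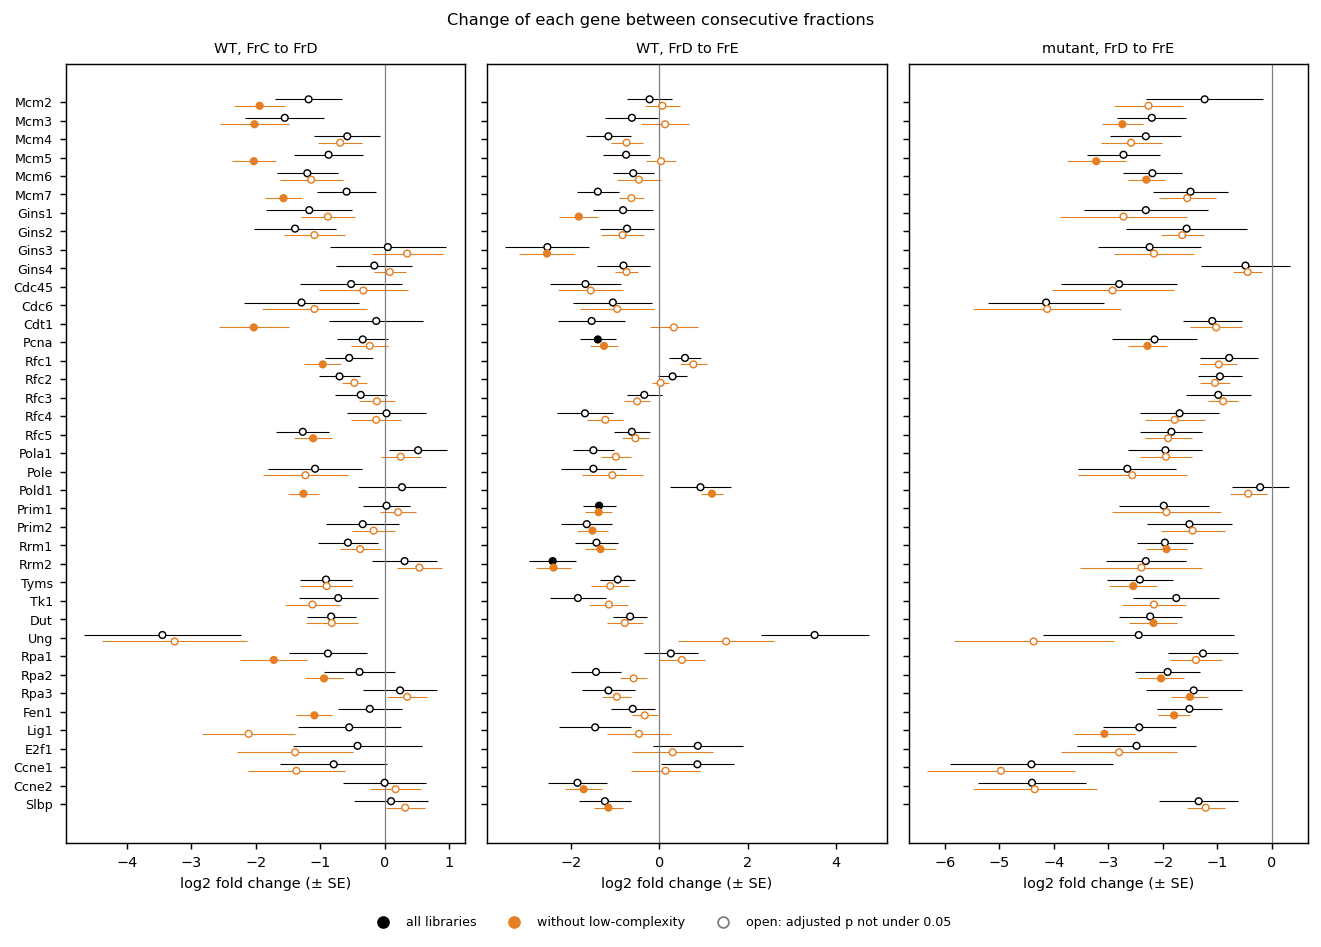
Log2 fold change with SE (x axis) of each of the 39 genes (y axis) in 3 steps between fractions, with all libraries in black and without low-complexity libraries in orange, filled where the adjusted p was under 0.05. The orange values of Mcm2, Mcm3, Mcm5, Mcm7 and Cdt1 lie at or below -1.57 in the WT FrC to FrD panel, and all 39 values lie below zero in the mutant FrD to FrE panel.

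The last step, from FrD to FrE, runs from late pre-B to immature B cells. In WT mice 3 genes fell, against 5.32% of all genes tested called, 2.43% lower and 2.88% higher. Values lay below zero in 32 of 39 genes, with a median of -1.05 against 0.01 over all genes. Rrm2 measured 248.3, 629.4, 129.2, 118.9 and 28.1 CPM in WT FrE. The 4 FrD libraries outside mouse 3 were above every FrE library, and Rrm2 fell by 2.41 ± 0.53 on the log2 scale (edgeR adjusted p = 0.00923). Pcna, the sliding clamp, measured 882.6, 798.4, 340.2, 1060.9 and 588.9 CPM in WT FrD and 190.5, 703.3, 274.2, 220.9 and 41.5 CPM in WT FrE. The groups overlapped through FrE of mouse 2, which was above FrD of mice 3 and 7, and Pcna fell by 1.39 ± 0.41 (edgeR adjusted p = 0.0495). Prim1, the catalytic primase subunit, measured 382.2, 172.4, 73.6, 335.9 and 201.3 CPM in WT FrD and 92.5, 175.3, 58.6, 96.8 and 34.5 in WT FrE. It fell by 1.36 ± 0.37 (edgeR adjusted p = 0.0326), with FrE of mice 1, 2 and 6 inside the FrD range.

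FrE of WT mouse 2 had the highest sum of the 39 genes in that group, 6979.5 CPM against 2854.8 to 4255.1 in the others. It also had the highest summed level of 8 plasma cell genes in that group, 23614.9 CPM against a group median of 8026.1, and the part of that signal in the result was not tested. The call of all 3 genes was lost without mouse 1 or without mouse 6, without mouse 7 the count was 1, and without mouse 2 it was 10. For those fits the shares of all genes called are not given here. Without the low-complexity libraries 9 genes fell and 1 rose, against 4.6% and 4.31% of all genes tested. Those that fell were Gins1 and Gins3, Pcna, Prim1 and Prim2, Rrm1 and Rrm2, Ccne2 (cyclin E2) and Slbp. Gins3 fell by 2.54 ± 0.62, Gins1 by 1.82 ± 0.44 and Prim2 by 1.51 ± 0.35. Pold1 rose by 1.19 ± 0.25 (edgeR adjusted p = 0.00452), from 45.6 to 62.1 CPM in the 4 FrD libraries to 99.1 to 193.2 in the 4 FrE libraries. The MCM group had a median of -0.21 in that fit, with 3 of 6 below zero, while 4 of 6 MCM genes had fallen in the step before. Whether these 2 steps differed from each other was not tested.

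In the mutants all 39 genes were lower in FrE than in FrD, with a median of -1.96 against -0.06 over all genes, of which 46.1% lay above zero. With all libraries 0 of the 39 genes and 0% of the 11197 genes tested were called by edgeR. DESeq2 gave an adjusted p for 36 of the 39 genes and called 9, all lower (0.525% of its genes were called lower). At an unadjusted p under 0.05 there were 26 of the 39 genes and 616 genes in all (5.50%). In 13 genes every FrE library was below every FrD library, and 1.87% of all genes tested did so. These were Mcm6, Gins2, Gins3, Cdc45, Cdc6, Pcna, Pole, Prim1, Prim2, Rrm1, Rrm2, Tyms and Dut. Leaving out FrE of mouse 9, the library of 42111 counts and the one low-complexity library of these 2 groups, together with the low-complexity libraries of the other mutant fractions, gave 11 genes that fell and none that rose, against 0.451% of all genes tested called lower. Without mouse 9 in every fraction the count was 2.

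Members of 4 roles were among the 11. Mcm5 measured 136.7, 209.8, 203.5, 304.9 and 334.3 CPM in FrD of mutant mice 4, 5, 8, 9 and 10, and 21.2, 47.5, 25.0, 142.5 and 4.12 CPM in FrE of the same mice. Outside mouse 9 every FrE library was below every FrD library, and Mcm5 fell by 3.22 ± 0.54 without the low-complexity libraries (edgeR adjusted p = 0.0140). Mcm3 fell by 2.74 ± 0.38 and Mcm6 by 2.30 ± 0.34. Pcna measured 1196.6, 516.8, 1148.4, 707.1 and 734.6 CPM in mutant FrD and 247.5, 167.1, 203.3, 332.5 and 78.0 CPM in mutant FrE. Its groups did not overlap, and it fell by 2.28 ± 0.35 (edgeR adjusted p = 0.00419). Tyms, the thymidylate synthase, fell by 2.54 ± 0.44 and Dut, the dUTPase, by 2.17 ± 0.44, and Rrm1, Rpa2, Rpa3, Fen1 and Lig1, the ligase that joins Okazaki fragments, made up the rest. FrE of mutant mouse 5, with the granulocyte signal of 71513.6 CPM, had a sum of the 39 genes of 2920.7 CPM. That was the highest of mutant FrE outside mouse 9 (4440.6), whose library this fit left out. The remaining mutant FrE libraries ran from 1540.5 to 2763.1 CPM, and the part of the granulocyte signal was not tested. Rrm2 measured 1638.0, 499.7, 1364.9, 1044.9 and 695.2 CPM in mutant FrD and 284.1, 322.6, 170.4, 332.5 and 1.32 in mutant FrE. These groups did not overlap either, but the change of -2.31 ± 0.73 was not called (edgeR adjusted p = 0.442).

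**Figure D4:**
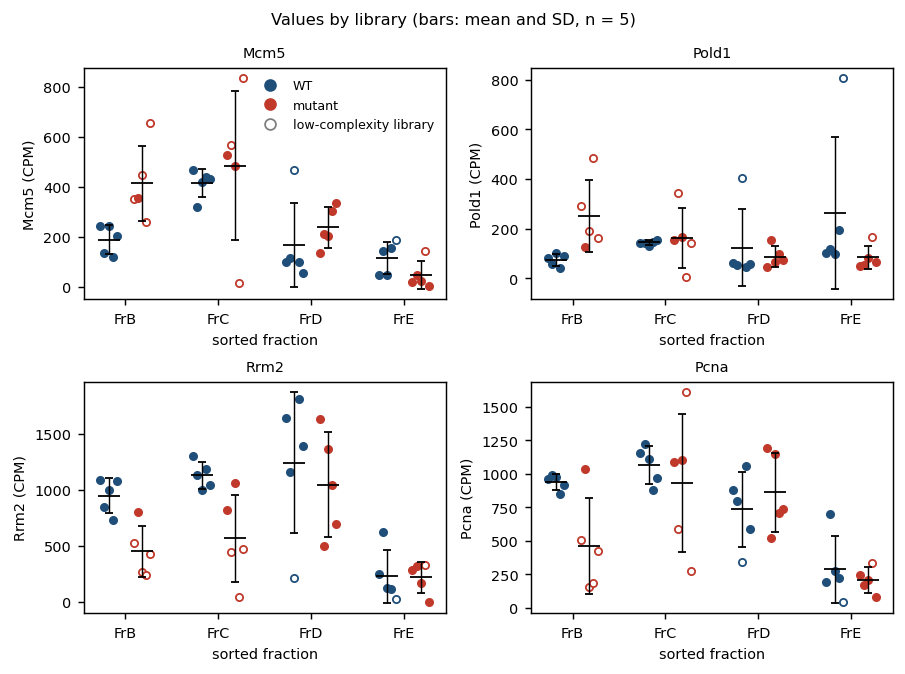
Level in CPM (y axes) of Mcm5, Pold1, Rrm2 and Pcna by sorted fraction (x axes) in each library, WT in blue and mutant in red, with the mean and SD of 5 libraries and low-complexity libraries as open circles. Rrm2 and Pcna are low in FrE of both genotypes, and the WT FrD library of mouse 3 stands at 466.7 CPM for Mcm5 and 402.7 CPM for Pold1.

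Whether the step from FrD to FrE differed between genotypes was tested on all 40 libraries, and 0 of the 39 genes were called, against 0.153% of the 12397 genes tested (0.0565% with a higher and 0.0968% with a lower step in the mutants). At an unadjusted p under 0.05 there were 11 of the 39 genes and 1270 of all genes, and DESeq2 called 2 (2.77% of its genes). The median difference was -1.14, with 33 of 39 below zero, against -0.12 over all genes. Without WT mouse 2 the median was -0.62. For Rrm2 the steps differed by 0.09 ± 0.87 on the log2 scale, an SE too wide to show that they were the same. For Pcna the difference was -0.78 ± 0.86. Without the low-complexity libraries 4 of the 39 genes had a more negative step in the mutants, against 0.736% of all genes tested. Mcm5 differed by -3.24 ± 0.61 (edgeR adjusted p = 0.00345), Mcm3 by -2.85 ± 0.72, Rfc1, the large clamp loader subunit, by -1.71 ± 0.44 and Pold1 by -1.60 ± 0.41. Mcm3 in WT mice measured 80.2, 129.4, 199.3, 121.3 and 69.9 CPM in FrD and 8.63, 112.2, 96.5, 240.8 and 7.67 CPM in FrE, and in the mutants 211.3, 231.5, 255.5, 293.0 and 330.2 in FrD and 34.6, 74.1, 14.5, 213.7 and 30.4 in FrE. The genotype groups of Mcm3 therefore overlapped in FrE and not in FrD. Among the WT FrE libraries kept in that fit, the 6 MCM genes summed to 949.8 CPM in mouse 2 and 1225.8 in mouse 6. The sums were 239.9 in mouse 1 and 500.8 in mouse 3. The 8 plasma cell genes were also highest in mice 2 (23614.9 CPM) and 6 (16844.2), and their part in the 4 calls was not tested.

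For the other steps the genotypes were less clearly comparable. In the mutant step from FrB to FrC no gene of the 39 was called (0% of all genes tested, 1797 genes and 7 of the 39 at an unadjusted p under 0.05, 1 of the 39 by DESeq2 against 2.33% of its genes), and the median was 0.33. Without mutant mouse 5 the count was 1. In the mutant step from FrC to FrD 1 gene, Mcm2, fell (2.97% of all genes tested were called, 2.56% lower and 0.402% higher), and the median was -0.56. That median was -0.15 without mouse 9, -0.19 without mouse 5 and -0.33 without mouse 8. Mcm2 measured 325.6, 99.5, 231.3, 1687.5 and 580.1 CPM in mutant FrC and 73.1, 78.8, 144.9, 272.6 and 168.9 in mutant FrD, so the groups overlapped and mouse 9 was the highest in both. Its change was -4.51 ± 1.16 with all libraries (edgeR adjusted p = 0.0391) and -1.65 without mouse 9. The fit scaled counts by TMM factors, and its estimate of -4.51 was a larger fall than the CPM values above show. Why it was larger was not tested. Over the alternatives other than leaving out 1 mouse the estimate ran from -6.34 to -0.9. Mcm2 was not called in any of the 5 fits that left out a mouse, nor with mouse as a replicate block. The genotype difference was called for 0 of the 39 genes in the step from FrB to FrC (0.524% of all genes tested, 3 of the 39 at an unadjusted p under 0.05, 0 by DESeq2 against 1.6% of its genes) and for 0 in the step from FrC to FrD (2.98%, of which 0.274% higher and 2.71% lower, 2 of the 39 at an unadjusted p under 0.05, 1 by DESeq2 against 3.49% of its genes). Without mutant mouse 5 the count for the step from FrB to FrC was 2.

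Comparing genotypes within a fraction, 4 of the 39 genes were higher and 0 lower in mutant FrB, against 7.37% of all genes tested called, 5.64% higher and 1.72% lower. The median over the 39 was -0.15 and 20 of them lay below zero. The median was 0.48 scaled to the spike-in RNA, 0.08 without the low-complexity libraries, 0.12 without mutant mouse 10 and 0.03 without mutant mouse 4, so the 39 genes had no stable direction in FrB. It was -0.03 without mutant mouse 8 and -0.27 without mutant mouse 9. Mcm2 measured 85.8, 142.4, 141.5, 73.0 and 112.8 CPM in WT FrB and 281.8, 246.3, 193.5, 391.4 and 331.2 in mutant FrB, and was higher by 1.69 ± 0.35 on the log2 scale (edgeR adjusted p = 0.0113). Pold1 measured 80.5, 59.4, 101.8, 40.8 and 91.2 CPM in WT FrB and 293.2, 125.5, 189.1, 485.3 and 163.8 in mutant FrB, and was higher by 2.11 ± 0.46 (edgeR adjusted p = 0.0144). Neither gene overlapped between the genotypes.

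Mcm5 measured 245.3, 135.7, 242.2, 118.6 and 203.7 CPM in WT FrB and 351.0, 353.7, 446.1, 260.6 and 656.6 in mutant FrB (1.50 ± 0.37, edgeR adjusted p = 0.0225). Lig1 measured 160.9, 132.3, 153.0, 94.1 and 164.7 CPM in WT FrB and 344.9, 223.4, 358.1, 193.5 and 624.7 in mutant FrB (1.68 ± 0.39, edgeR adjusted p = 0.0187). All 4 genes were higher in every mutant library than in every WT library, and 4.41% of all genes tested did the same. In the other direction 1 gene of the 39, Ccne2, was lower in every mutant library (4.94 to 78.4 CPM) than in every WT library (83.8 to 134.6), as were 8.27% of all genes tested, and it was not called.

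Of the 5 mutant FrB libraries 4 were low-complexity libraries. In mutant FrB the granulocyte and monocyte genes were 2461.9 to 59836.0 CPM in sum, as given above. The 10 genes of immature and mature B cells summed to 716.7 to 2449.6 CPM in mutant FrB and 7539.8 to 12144.3 in WT FrB, and the 8 plasma cell genes to 948.4 to 12863.5 and 17778.1 to 52993.6, both without overlap. All genes of these 3 lists had a count in both groups, and their part in the 4 calls was not tested. Mouse 5 gave the one mutant FrB library that was not of low complexity. Its place above all WT FrB libraries for all 4 genes follows from the ranges above and adds no support. In that 1 library 14 of the 39 genes and 26.4% of all genes tested lay above every WT FrB library. With that library alone the differences were 1.09 for Mcm2, 0.85 for Mcm5, 0.69 for Pold1 and 0.61 for Lig1, and 0 genes of the 39 were called (1.2% of all genes tested). Scaled to the spike-in RNA 0 were called as well (1.4% of all genes tested), and the median of all genes was 0.59 higher in the mutants. Leaving out 1 mouse, the count of 4 became 2 without WT mouse 1, 6 or 7, 1 without WT mouse 2 and 10 without mutant mouse 5. The shares of all genes called in those fits are not given here, so these counts show only that the calls were unstable.

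In FrC 0 of the 39 genes and 0% of the 10299 genes tested differed between genotypes (3 of the 39 and 1168 genes at an unadjusted p under 0.05, 0 of the 39 by DESeq2 against 10.3% of its genes), with a median of -0.03. In FrD 0 of the 39 differed with all libraries, against 0.00996% of the 10043 genes tested (1 of the 39 and 530 genes at an unadjusted p under 0.05, 0 of the 39 by DESeq2 against 2.13% of its genes), with a median of 0.08, which was -0.08 without WT mouse 7. Mcm3 in FrD, with the values given above, was the one gene of the 39 higher in every mutant library than in every WT library, as were 1.72% of all genes. Without FrD of WT mouse 3 it was called, higher by 1.29 ± 0.25 (edgeR adjusted p = 0.0379), against 0.106% of all genes called higher, and the median over the 39 was 0.40. In that fit all 6 MCM genes lay above zero in the mutants, with a median of 0.76, while 3 of the 5 polymerase and primase genes lay below zero. The 15 granulocyte and monocyte genes summed to 2520.3 to 10154.5 CPM in mutant FrD, against 35.8 to 348.0 in the WT FrD libraries outside mouse 3, and their part in the result was not tested.

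In FrE 37 of the 39 genes were lower in the mutants, with a median of -0.85 against -0.10 over all genes, of which 56.4% lay below zero. That median was -0.61 without WT mouse 2, -0.65 without mutant mouse 8 and -1.04 without mutant mouse 5. None of the 39 genes was called with all libraries, among 0% of the 9662 genes tested (7 of the 39 and 512 genes at an unadjusted p under 0.05, 0 of the 39 by DESeq2 against 0.891% of its genes). Without the 2 low-complexity libraries all 39 lay below zero, with a median of -1.02 against -0.02, and again none was called (0.284% of all genes tested). The 2 genes not below zero with all libraries were Gins4 and Tk1, both within their SE of zero. Pold1 had the lowest unadjusted p, with 104.2, 117.1, 99.1, 193.2 and 804.9 CPM in WT FrE and 51.4, 54.5, 83.4, 166.2 and 66.2 in mutant FrE. The highest value was that of the low-complexity library of WT mouse 7, the groups overlapped through mutant mouse 9, and the difference was -2.17 ± 0.66 (edgeR adjusted p = 0.608). Ccne1 (cyclin E1) measured 39.2, 56.2, 29.0, 35.4 and 261.0 CPM in WT FrE and 0.153, 5.48, 6.24, 47.5 and 0 in mutant FrE. Outside mouse 9, where 47.5 CPM was 2 counts, every mutant library was below every WT library, and the difference was -4.75 ± 1.49 (edgeR adjusted p = 0.657). Without the low-complexity libraries Rfc2, Pold1, Ccne1 and Ccne2 were lower in every mutant than in every WT library, as were 2.73% of all genes tested. The summed level of 10 genes of immature and mature B cells was 9458.7 to 15672.9 CPM in mutant FrE and 12376.3 to 37126.2 in WT FrE, and that of 9 pro-B and recombination genes was 498.7 to 727.6 CPM in mutant FrE and 65.5 to 196.3 in WT FrE, without overlap. The 8 plasma cell genes summed to 2040.5 to 2855.7 CPM in mutant FrE and 1186.1 to 23614.9 in WT FrE. Their highest values were in WT mice 2 (23614.9 CPM) and 6 (16844.2). Those libraries also had the highest sums of the 39 genes in WT FrE, 6979.5 and 4255.1 CPM. All genes of these lists had a count in both groups, and their part in the result was not tested.

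**Figure D5:**
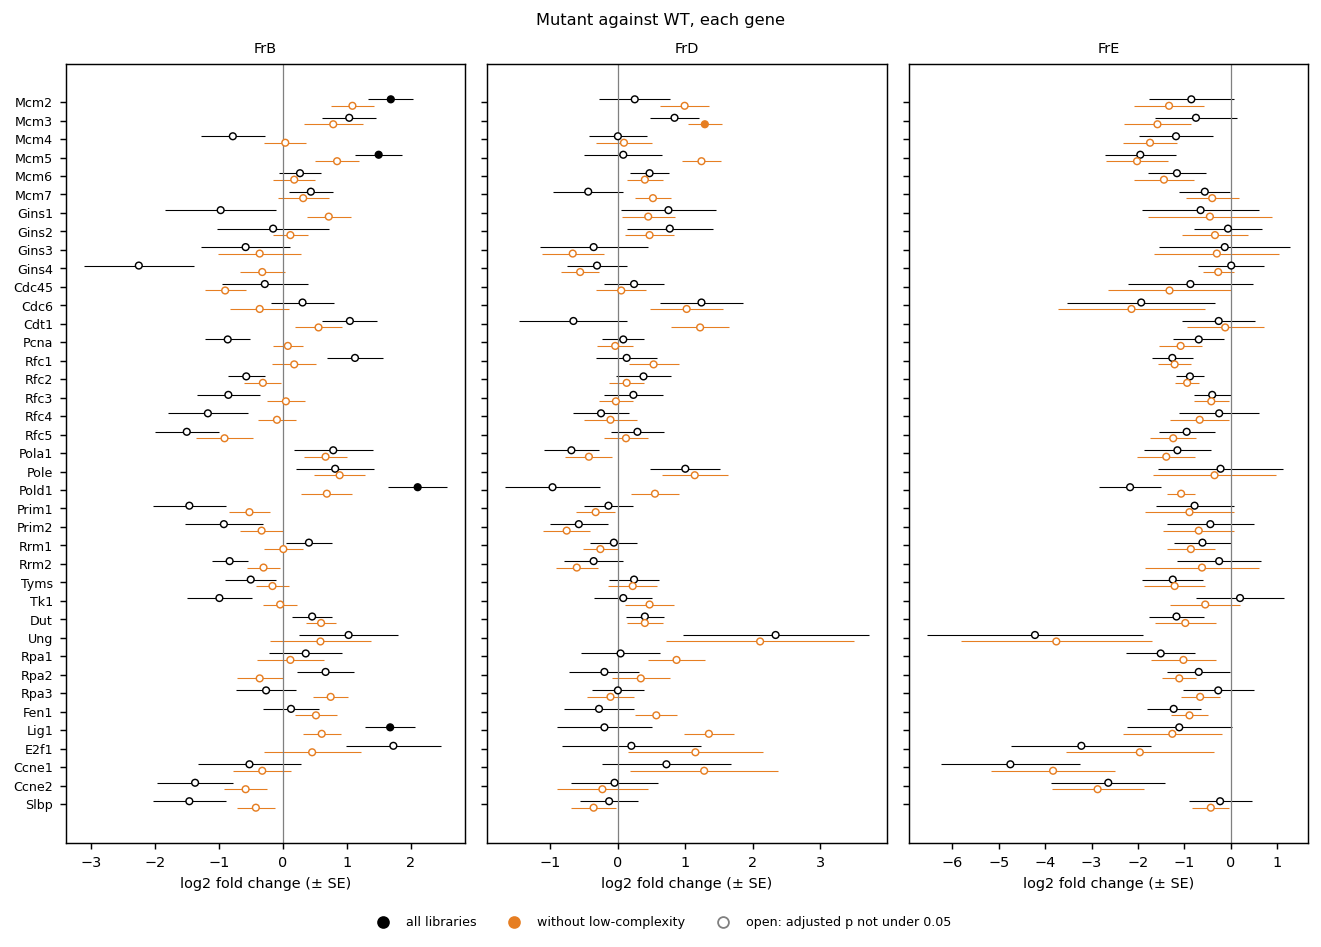
Log2 fold change of mutant against WT with SE (x axis) of each of the 39 genes (y axis) in FrB, FrD and FrE, with all libraries in black and without low-complexity libraries in orange, filled where the adjusted p was under 0.05. Filled points are Mcm2, Mcm5, Pold1 and Lig1 in FrB with all libraries and Mcm3 in FrD without low-complexity libraries, and in FrE all 39 orange values lie below zero.

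A list of 78 other genes of the same pathway gives the setting: origin recognition and firing, fork and chromatin assembly, other nucleotide enzymes, G1/S kinases with E2F activators, and pocket proteins with CDK inhibitors and E2F repressors. Between WT FrC and FrD 3 of the 76 tested rose and 6 fell, beside the background of 5.23% given above, and the median was -0.32. Samhd1, which degrades deoxynucleotides, measured 67.0, 42.4, 47.5, 71.7 and 71.4 CPM in WT FrC and 335.0, 533.6, 272.7, 159.8 and 295.7 in WT FrD, with no overlap, and rose by 2.66 ± 0.40 (edgeR adjusted p = 0.000355). Rrm2b, the reductase subunit used outside S phase, rose by 1.89 ± 0.35, from 36.9 to 52.8 CPM in FrC to 113.3 to 179.3 in FrD. Cdkn1b, which encodes the CDK inhibitor p27, rose by 1.52 ± 0.33. Scaled to the spike-in RNA none of the 3 was called higher, with changes of 0.41 for Samhd1, -0.57 for Rrm2b and -0.99 for Cdkn1b.

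Cdk6, a kinase of the G1 phase, measured 882.5, 1001.6, 946.1, 827.8 and 764.2 CPM in WT FrC and 103.5, 187.1, 43.9, 120.5 and 46.3 in WT FrD. Its groups were far apart, and it fell by 2.96 ± 0.38 (edgeR adjusted p = 5.8e-05). Dctpp1, a dCTP pyrophosphatase, fell by 1.77 ± 0.33 and Cad, which starts pyrimidine synthesis, by 4.26 ± 0.89. Pold2, Shmt1 and E2f4 also fell. Cdk6 and Samhd1 were called in the same directions in the mutants, by -2.50 ± 0.51 and 2.52 ± 0.67, and also without the low-complexity libraries. With mouse as a replicate block neither was called in the mutants, where 0.00893% of all genes tested were. Between WT FrD and FrE 8 of the 76 fell and none rose, against 2.43% of all genes tested called lower and 2.88% higher, with a median of -1.07. Scaled to the spike-in RNA 0 of the 76 were called in that step, and without the low-complexity libraries 20 of 77 fell. The 8 that fell with all libraries were Dbf4, Asf1b, Pclaf, Dck, Rrm2b, Ccna2, Cks1b and Cdkn2d. Ccna2 (cyclin A2) fell by 2.15 ± 0.41 in that fit.

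Between genotypes 3 of the 75 other genes tested were higher in mutant FrB and 0 lower, a share no larger than the 5.64% of all genes called higher there. E2f2, an activating E2F factor, measured 101.2, 88.2, 134.6, 64.5 and 117.2 CPM in WT FrB and 280.1, 264.9, 435.2, 587.8 and 387.9 in mutant FrB, with no overlap (2.35 ± 0.39, edgeR adjusted p = 0.00442). Dnmt1, the maintenance DNA methyltransferase, was higher by 2.02 ± 0.39, with 72.7 to 122.0 CPM in WT and 190.6 to 599.8 in mutant libraries. Clspn, the claspin gene of the replication checkpoint, was higher by 1.85 ± 0.54, with 35.4 to 73.7 CPM in WT and 55.5 to 372.5 in mutant libraries, which overlapped. Without the low-complexity libraries the calls of these 3 genes were lost, in a fit with 1 mutant FrB library and so no spread among mutants. In that 1 library Uhrf1 was higher by 1.35 and Samhd1 changed by -2.33 on the log2 scale. None of the other genes was called between genotypes in FrC, FrD or FrE by edgeR with all libraries.

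The genotype difference in a step was called for 3 other genes with all libraries. Rnaseh2a, a subunit of the nuclease that removes RNA from DNA, measured 190.2, 80.7, 139.7, 2491.9 and 99.6 CPM in mutant FrC. Topbp1, a scaffold of origin firing and of the checkpoint, measured 104.6, 82.9, 114.9, 2590.5 and 57.1 CPM, and Rrm2b 59.3, 23.2, 50.4, 244.9 and 46.6 CPM there. Mouse 9 was the highest for all 3, in the low-complexity library with 80463.6 CPM of erythroid genes. The differences of 5.39 ± 1.25 (Rnaseh2a) and 4.59 ± 1.02 (Rrm2b) in the step from FrB to FrC were 0.21 and 1.16 without that mouse. The differences of -5.57 ± 1.35 (Topbp1), -4.83 ± 1.23 (Rnaseh2a) and -4.17 ± 1.0 (Rrm2b) in the step from FrC to FrD were 0.12, 0.14 and -0.89 without it. Each of these calls was also lost on leaving out any 1 WT mouse, though the differences changed less than without mouse 9. Rrm2b was also called in the step from FrD to FrE without the low-complexity libraries, with a difference of 1.76 ± 0.41.

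Exons of 13 of the 39 genes (Mcm7, Gins2, Cdc45, Rfc2, Rfc4, Rfc5, Pole, Tk1, Rpa1, Fen1, Lig1, Ccne2 and Slbp) overlap another gene in GENCODE M21. No source used here gives the strand setting of the counting. Within the overlapping stretches, reads of these genes and of their partners therefore cannot be told apart.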

How the data were processed

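The deposited table held whole-number read counts per gene for 40 polyA Smart-seq2 libraries of 100 cells, with 92 ERCC spike-ins. Per the submitters' processing notes the authors used HISAT2 2.1.0, featureCounts 1.4.6 and mm10. No source used here gives their annotation release or strand setting. Endogenous counts were tested with edgeR 4.0.16 (TMM, filterByExpr with min.count 10 and min.total.count 15, robust quasi-likelihood) in R 4.3.3, with Benjamini-Hochberg adjustment over all genes tested and calls at 0.05. Genotype effects were fitted within a fraction (10 libraries), steps within a genotype (20) and genotype differences in a step on all 40. Gene models were GENCODE M21 (GRCm38). CPM was computed on endogenous counts. The fits were tested on simulated data with known changes. At a log2 change of 2, 17% of changed genes were recovered for the genotype effect in FrD and 26.6% for the WT step from FrC to FrD. At a log2 change of 3 the shares were 36.7% and 48.6%. A count of 0 called genes therefore does not show that no gene changed.

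The members and gene lists were chosen with earlier results of these data known. Values by library are given for members called in a genotype effect or difference, up to 3 called per direction in a WT step, the most abundant member per kilobase of each role, and other pathway genes by the same limits. Genes singled out beyond these, such as Ung, Ccne1, Ccne2 and Cdt1, were chosen after their values were seen. The low-complexity threshold of 15% was set with the libraries' values known. No libraries were identical (highest correlation 0.958). The 4 fractions of a numbered mouse came from 1 animal, so numbers pair libraries within a genotype. Deviations of same-numbered libraries had median correlations from -0.014 to 0.071 over 11921 genes. Alternatives were DESeq2 1.42.0 as a test and for size factors, ERCC scaling, no low-count filter, no low-complexity libraries, the second index as a covariate, mouse as a replicate block, and leaving out each mouse.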

Additional observations from a re-analysis of the deposited data

Results flagged for a closer look

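In 12 of 104 groups of 5 libraries examined, 1 library stood apart from the other 4 by Dixon's criterion, which chance meets in about 1 of 20 groups. FrD of WT mouse 3 stood high for Mcm2 (209.2 CPM), Mcm5 (466.7), Cdt1 (291.3), Pold1 (402.7) and Lig1 (385.9). FrE of WT mouse 7 stood high for Pold1 (804.9 CPM). FrE of mutant mouse 9, the library of 42111 counts, stood high for Mcm2 (308.7 CPM), Pold1 (166.2) and Lig1 (142.5). FrC of mutant mouse 9 stood apart for Rpa3 at 601.2 CPM. These 4 libraries were low-complexity libraries. Mutant mouse 5 stood apart for Gins4 in FrB, where its 113.5 CPM was the highest value, and in FrD, where its 75.9 CPM was the lowest.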

How the results depend on the processing

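Counts below are of the 39 genes called, with the share of all genes called in parentheses where an alternative other than leaving out 1 mouse called above 3%. Counts from fits that left out 1 mouse, here and above, stand without that share and cannot be set against a background. The genotype effect in FrB (4) became 0 with ERCC scaling, 8 with DESeq2 (14.7%), 0 without low-complexity libraries, 2 with the second index (3.77%) and 1 to 10 without 1 mouse. That in FrD (0) became 1 without low-complexity libraries and 0 to 1 without 1 mouse. The WT step from FrC to FrD (0) gave 37 with ERCC scaling (58.0%), 2 with DESeq2 (9.58%), 11 without low-complexity libraries (16.1%) and 0 to 3 without 1 mouse. The WT step from FrD to FrE (3) gave 0, 10 (10.8%), 10 (8.9%) and 0 to 10 in the same order. The mutant step from FrB to FrC (0) gave 1 with DESeq2 and 0 to 1 without 1 mouse. The mutant step from FrC to FrD (1) gave 3 with DESeq2 size factors (4.1%), 21 with ERCC scaling (28.8%), 0 with no low-count filter, 2 with DESeq2 (4.3%), 0 without low-complexity libraries, 0 with mouse as a replicate block and 0 to 0 without 1 mouse. The mutant step from FrD to FrE (0) gave 9 with DESeq2, 11 without low-complexity libraries and 0 to 2 without 1 mouse. Genotype differences (0 each) gave 0 to 2 without 1 mouse from FrB to FrC, 1 with DESeq2 from FrC to FrD (3.49%), and 2 with DESeq2 and 4 without low-complexity libraries from FrD to FrE. The genotype effects in FrC and FrE and the WT step from FrB to FrC stayed at 0 in the alternatives run. The replicate block changed no other count of the 39 genes. With it none of the 3 other pathway genes called in a genotype difference was called. Signs reversed for Topbp1 in the genotype difference from FrC to FrD (0.40 without low-complexity libraries, -6.0 to 0.12 without 1 mouse), for Rnaseh2a there (-5.21 to 0.14 without 1 mouse, the last of each without mutant mouse 9), and under ERCC scaling for Rrm2b (-0.57) and Cdkn1b (-0.99) in the WT step from FrC to FrD. The cause was not tested. Depth limits FrE of mutant mouse 9 most, where 1 count is 23.7 CPM.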
